A study of Mus musculus with 48 samples.

Results

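The genes described here are 37 enzymes and enzyme subunits that place, remove or read chromatin marks, or remodel chromatin. The methyltransferases of histone H3 at lysine 4 (H3K4) are left out, while demethylases of that lysine are included. The 37 were chosen by name, not by their values, as rows of the RNA count matrix, which lists 55487 genes, and all 37 were found. They comprise 4 genes of Polycomb repressive complex 2, 8 histone demethylases, 5 acetyltransferases, 8 deacetylases, 6 enzymes of DNA methylation, 3 methyltransferases of H3K36 and H3K79 and 3 genes of chromatin remodelling.

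All 12 RNA libraries were made from C57BL/6 limbs at postnatal day 3, and cells of both genotypes carry floxed Ptip alleles. KO cells carry a Cre transgene driven by the Col2a1 promoter (Ptipf/f;Col2a1-cre) and WT cells are Ptipf/f without it. Each genotype was sorted, going by the labels, into SSC (skeletal stem cells), pBCSP (pre-bone, cartilage and stromal progenitors) and BCSP (the later bone, cartilage and stromal progenitors), with 2 libraries for each of the 6 groups. Col2a1 is a gene of the cartilage lineage, so the deletion is expected only in cells with a history of its activity, and no group carries Cre without the floxed alleles. The labels do not say whether the 2 libraries of a group are separate animals, so each p-value measures the spread between libraries, which may be technical. The RNA is from bulk sorted cells, in which fewer cells of a type and less RNA per cell cannot be told apart.

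Ptip is the gene symbol Paxip1, a subunit of the KMT2C and KMT2D complexes that methylate H3K4 at enhancers. Chromatin marks are set by opposing enzymes. Polycomb repressive complex 2 methylates H3K27, a mark of silenced genes, while acetyltransferases such as p300 place acetyl groups on the same lysine at active enhancers. Deacetylases and demethylases remove these marks, DNA methyltransferases add methyl groups to cytosine in CG pairs, and the TET enzymes oxidise them. In the growing skeleton several of these enzymes, among them EZH2 and HDAC4, are known to control the maturation of chondrocytes.

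Paxip1 had 0.347 and 0 CPM (counts scaled by TMM to a common library size) in SSC KO, 0.568 and 0.0904 in pBCSP KO and 3.48 and 0.791 in BCSP KO. SSC WT had 13.7 and 11.8, pBCSP WT 14.6 and 7.56 and BCSP WT 13.2 and 7.25. All 6 KO libraries lay below all 6 WT libraries, with an average log2 difference of -4.52 ± 0.76 (SE; edgeR's quasi-likelihood test, adjusted p = 0.0396). Leaving out each of the 12 libraries in turn gave -6.08 to -4.19, with adjusted p values of 0.00117 to 0.194 in edgeR, and the call held in 3 of the 12 fits (without SSC KO replicate 1, SSC KO replicate 2 or BCSP KO replicate 1). Libraries of the same genotype and number deviated together, which this fit does not model, and limma with a correlation between them gave -4.98 (adjusted p = 0.0417). The libraries held 15495915 to 22670899 counts. SSC KO replicate 2 had reads in 13987 genes, against 20965 to 23831 in the other 11 libraries, and the gap between the SSC KO replicates was the widest of the 6 groups. The median gap between 2 libraries of a group, over the 37 enzymes, was 0.84 (log2) in SSC KO, 0.56 in pBCSP KO and 0.44 in BCSP KO, while SSC WT gave 0.42, pBCSP WT 0.32 and BCSP WT 0.26. Among markers of the labelled cell type, Cd200 ranged over 13.2 to 302.8 CPM in KO and 25.7 to 289.3 CPM in WT, and Itgav over 16.5 to 64.4 CPM in KO and 59.9 to 71.7 CPM in WT. The 6 skeletal progenitor markers, these 2 included, summed to 362 and 533 CPM in SSC KO, against 429 and 353 in SSC WT. Their sums were 170 and 158 CPM in pBCSP KO, against 262 and 313 in pBCSP WT. In BCSP KO they were 319 and 170 CPM, against 480 and 503 in BCSP WT. DESeq2 called 1 of the 6, Pdgfra, lower in KO. The chondrocyte marker Col2a1 was at 21136 CPM or more in every library. The 6 chondrocyte markers summed to 37779 to 64260 CPM in KO and 26691 to 73435 CPM in WT, and edgeR called 2 of them higher in KO. DESeq2 called 4 higher, namely Acan, Col9a1, Col11a1 and Matn1. Their median log2 ratio to the WT mean of the population ran from 0.35 in SSC KO replicate 1 to 1.63 in BCSP KO replicate 2. The 6 erythroid markers summed to 1.58 to 31.9 CPM in KO and 21.8 to 257.5 CPM in WT, and 6 endothelial markers to 0 to 20.3 CPM in KO and 4.61 to 42.0 CPM in WT, while 6 osteoblast markers summed to 7212 to 20691 CPM in KO and 14609 to 41300 CPM in WT. In SSC KO replicate 2 all 6 endothelial markers were at 0. The part of these cell types in the values below was not tested.

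No member of the group passed the threshold of 0.05 on the adjusted p in the average of KO minus WT over the 3 populations. All 37 were among the 17494 genes tested, of which 205 passed, or 1.17%, with 0.966% higher and 0.206% lower in KO. With same-numbered libraries correlated within each genotype, limma called 44 genes and 0 members. At an unadjusted p under 0.05 there were 6 of the 37, 2 with higher values in KO (background 11%) and 4 with lower (8.57%), against 19.6% of all genes in either direction, so the share was no greater than the background. The smallest adjusted p was 0.107 for Eed, followed by 0.112 for Tet1, 0.143 for Hdac1, 0.217 for Kat2b, 0.237 for Crebbp and 0.248 for Hdac4. The median log2 difference of the members was -0.17, beside -0.09 for all genes tested, and 12 of them lay above 0, where 44.7% of all genes did, and 25 below. DESeq2 called 3 of the 37, namely Eed (adjusted p = 0.0207), Kat2b (0.0409) and Tet1 (0.0168), where it called 8.75% of the genes it tested. For 23 of the 37 the 95% interval of the average difference lay within 2-fold in either direction, and in single populations this held for 4 in SSC, 6 in pBCSP and 8 in BCSP. The intervals come from the edgeR fit, which takes same-numbered libraries as independent, so those of the average may be too narrow.

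The number of members past the threshold rested on which libraries were used. Without SSC KO replicate 1 it was 8 (Eed, Kdm6b, Crebbp, Kat2b, Hdac1, Sirt1, Dnmt3b and Tet1), while 6147 genes passed in the same fit, in which SSC KO was represented by the library with few genes detected. Without SSC KO replicate 2 it was 1, Kat2b, at an adjusted p of 0.0467. Leaving out any other single library gave 0 members, and the count of all genes ranged from 0 to 6147 over these 12 fits.

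**Figure D1:**
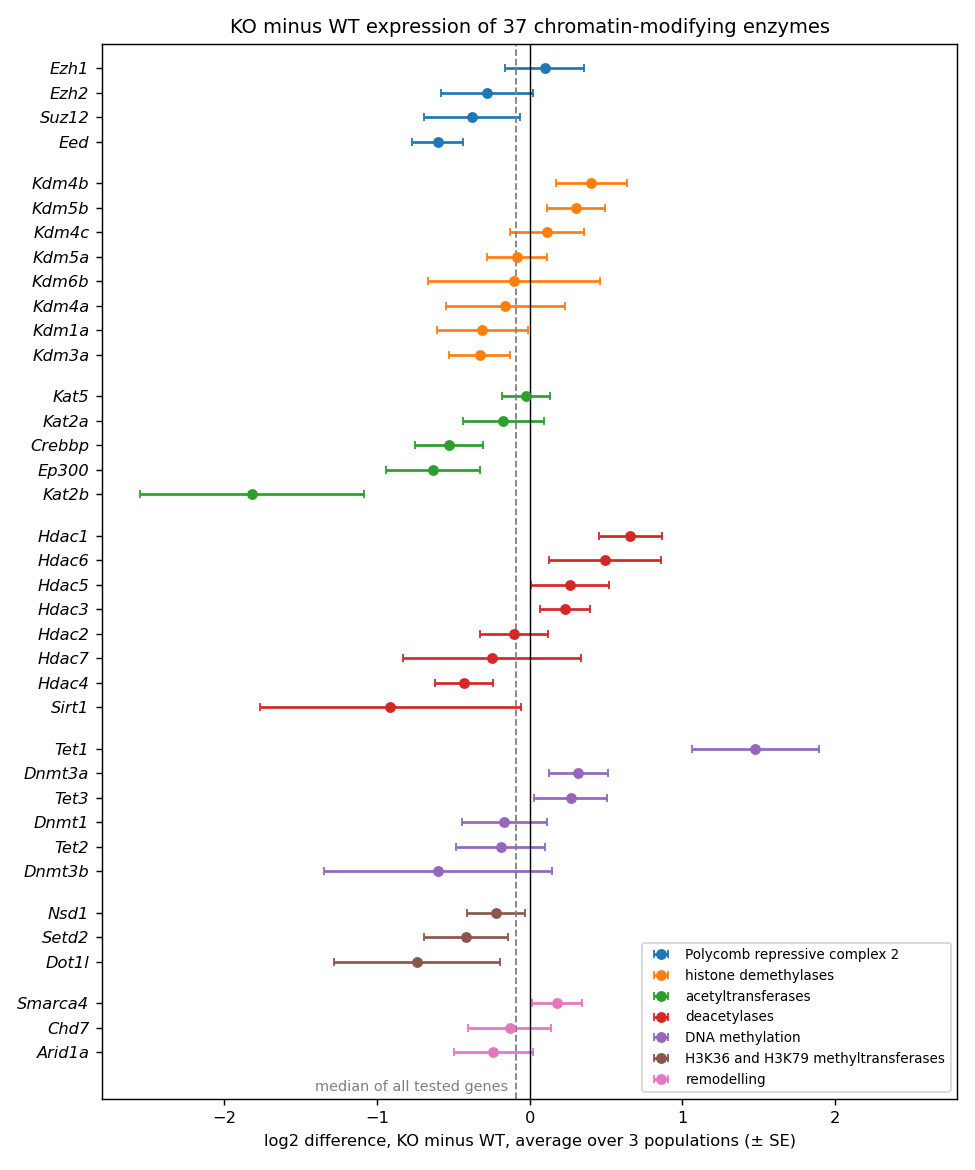
Average log2 difference of KO minus WT over the 3 populations for each of the 37 genes, ordered by role, with points at the edgeR estimate and bars of ± 1 SE; the solid line is 0 and the dashed line the median of all 17494 genes tested. Kat2b at -1.82 and Tet1 at 1.48 lie furthest from 0, and no gene passed the threshold on the adjusted p.

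Polycomb repressive complex 2 is built from a catalytic subunit, EZH1 or EZH2, with SUZ12 as scaffold and EED, which binds the methylated lysine the complex makes. Of its 4 genes 0 were called, 3 had lower averages in KO and the median was -0.33. Eed had 36.7 and 23.7 CPM in SSC KO, against 43.9 and 49.4 in SSC WT, then 36.8 and 30.3 in pBCSP KO, against 63.8 and 60.3 in pBCSP WT, and 35.0 and 32.1 in BCSP KO, against 39.1 and 43.5 in BCSP WT. All 6 KO libraries lay below all 6 WT libraries, a pattern seen in 1.98% of all genes tested. The average difference was -0.60 ± 0.17 (SE), or 0.658-fold, and it ranged from -0.71 to -0.51 when single libraries were left out. By population it was -0.63 in SSC, -0.89 in pBCSP and -0.30 in BCSP, and the F test of a difference between populations gave an adjusted p of 1 (unadjusted 0.391, edgeR).

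Suz12 had 3.53 and 5.60 CPM in SSC KO, against 4.73 and 8.06 in SSC WT, and the groups overlapped. It had 4.98 and 7.96 CPM in pBCSP KO, against 9.03 and 7.56 in pBCSP WT, and 5.53 and 5.23 in BCSP KO, against 5.97 and 7.25 in BCSP WT, where the groups did not overlap. Its average difference was -0.38 ± 0.31 (SE). The 2 catalytic subunits had averages of -0.28 ± 0.30 for Ezh2 and 0.10 ± 0.26 for Ezh1. Ezh2 ranged over 9.87 to 27.1 CPM in KO and 18.7 to 36.4 CPM in WT, and every KO library was below the mean of its own WT group. Ezh1 had a different arrangement: the KO libraries numbered 1 were at 24.2 to 27.6 CPM, below all WT libraries (29.2 to 40.8 CPM), and those numbered 2 at 43.0 to 54.6 CPM, above them all.

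The histone demethylases showed 0 calls, with 3 averages above 0, 5 below and a median of -0.09. KDM1A and the KDM5 enzymes act on H3K4, KDM3A on H3K9, the KDM4 enzymes on H3K9 and H3K36, and KDM6B on H3K27. Kdm4b had 23.0 and 41.5 CPM in SSC KO, against 31.2 and 27.4 in SSC WT, then 36.3 and 50.8 in pBCSP KO, against 20.7 and 25.8 in pBCSP WT, and 27.2 and 51.4 in BCSP KO, against 35.5 and 34.7 in BCSP WT. Only in pBCSP did both KO libraries exceed both WT libraries, and the average difference was 0.40 ± 0.23 (SE; adjusted p = 0.37 in edgeR). Without the 3 KO libraries numbered 2 it was -0.02.

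Kdm3a had 24.3 and 38.4 CPM in SSC KO, against 30.4 and 49.3 in SSC WT, then 34.8 and 45.9 in pBCSP KO, against 33.2 and 39.1 in pBCSP WT, and 26.7 and 26.5 in BCSP KO, against 44.5 and 48.0 in BCSP WT. Its groups separated in BCSP, where the difference was -0.80 ± 0.35 (SE) with an unadjusted p of 0.046 and an adjusted p of 0.785 in edgeR, and they overlapped in SSC and pBCSP. Kdm3a and Kdm4b are known as genes that hypoxia induces. In the same libraries 15 hypoxia target genes summed to 6041 to 10611 CPM in KO and 2507 to 3937 CPM in WT, and 5 of them were called higher in KO, with P4ha1 at 1.57 ± 0.14, Car9 at 2.34 ± 0.29 and Pgk1 at 1.63 ± 0.22 (log2 ± SE) the 3 with the smallest p. With each library left out in turn these 3 calls held in 4 of 12 fits, at 1.48 to 1.63 for P4ha1, 2.04 to 2.51 for Car9 and 1.47 to 1.77 for Pgk1. All 3 passed in the limma fit that correlates same-numbered libraries within a genotype (adjusted p of 0.0309, 0.0351 and 0.0413 in that order). Neither demethylase passed the threshold.

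Kdm6b, which removes methyl groups from H3K27, was chosen for its values in full because its replicates differed most in SSC KO, and that choice was made after its values were seen. It had 1286 and 76.7 CPM in SSC KO, against 728 and 596 in SSC WT, then 1473 and 475 in pBCSP KO, against 815 and 801 in pBCSP WT, and 982 and 426 in BCSP KO, against 968 and 1206 in BCSP WT. The KO libraries numbered 2 were below all WT libraries and those numbered 1 were not, so the average of -0.11 ± 0.56 (SE) joins opposite values and became 0.56 without the KO libraries numbered 2. The remaining demethylases had averages of -0.31 ± 0.30 for Kdm1a, -0.16 ± 0.39 for Kdm4a, 0.11 ± 0.24 for Kdm4c, -0.08 ± 0.19 for Kdm5a and 0.30 ± 0.19 for Kdm5b. Kdm4a went different ways by population: KO was at 6.86 and 1.497 CPM in SSC, against 7.84 and 8.48 in WT, at 10.9 and 11.2 in pBCSP, against 4.18 and 7.35 in WT, and at 6.11 and 6.88 in BCSP, against 8.73 and 9.05 in WT. The groups did not overlap in any of the 3 populations, and the F test of a difference between populations gave an adjusted p of 1 (unadjusted 0.174, edgeR).

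**Figure D2:**
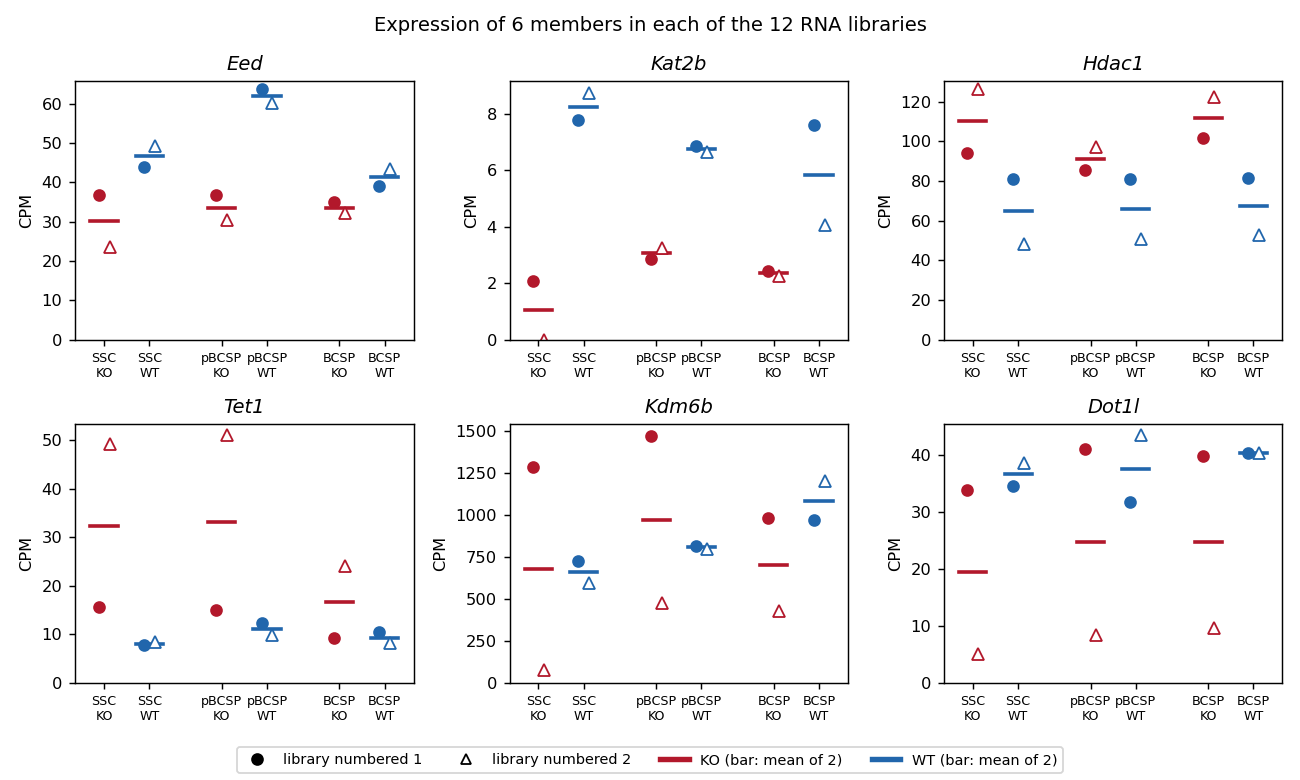
CPM of 6 genes in all 12 RNA libraries, with KO in red left of WT in blue for each population; filled circles are libraries numbered 1, open triangles libraries numbered 2 and bars the mean of 2. Eed and Kat2b in KO lie below every WT library and Hdac1 above every one, while Tet1, Kdm6b and Dot1l differ between KO libraries numbered 1 and 2.

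The 5 acetyltransferases all had averages below 0, with 0 called and a median of -0.53. Their summed level was 118.0 to 218.3 CPM in KO and 208.5 to 276.4 CPM in WT. Kat2b encodes PCAF, which acetylates H3K9 as a subunit of coactivator complexes. It had 2.08 and 0 CPM in SSC KO, against 7.78 and 8.72 in SSC WT, then 2.84 and 3.26 in pBCSP KO, against 6.85 and 6.64 in pBCSP WT, and 2.42 and 2.25 in BCSP KO, against 7.59 and 4.05 in BCSP WT. All 6 KO libraries lay below all 6 WT libraries. The value of 0 in SSC KO replicate 2 allows up to 0.166 CPM, which covers counting error only. The average difference was -1.82 ± 0.73 (SE), or 0.284-fold, with population values of -2.996 in SSC, -1.14 in pBCSP and -1.31 in BCSP. Leaving out SSC KO replicate 1, which leaves the library at 0 to stand for its group, moved it to -4.23, and leaving out SSC KO replicate 2 moved it to -1.48 (adjusted p = 0.0467 in edgeR).

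Kat2a encodes GCN5, the close relative of PCAF that occupies the same complexes. Its average was -0.17 ± 0.27 (SE), with 11.9 to 38.6 CPM in KO and 18.6 to 38.8 CPM in WT. Crebbp and Ep300 encode CBP and p300, which acetylate H3K27 at enhancers and promoters. Crebbp had 108.3 and 48.0 CPM in SSC KO, against 96.2 and 130.4 in SSC WT, then 95.7 and 108.8 in pBCSP KO, against 138.8 and 159.3 in pBCSP WT, and 109.4 and 70.9 in BCSP KO, against 117.0 and 139.5 in BCSP WT. KO lay below WT without overlap in pBCSP and BCSP but not in SSC, and the average was -0.53 ± 0.22 (SE), with -0.54 in SSC, -0.54 in pBCSP and -0.51 in BCSP. Single libraries moved these values: SSC gave -1.23 without SSC KO replicate 1 and -0.07 without SSC KO replicate 2, and BCSP gave -0.897 without BCSP KO replicate 1 and -0.23 without BCSP KO replicate 2. Ep300 averaged -0.63 ± 0.31 (SE; adjusted p = 0.294 in edgeR), at 6.76 to 19.8 CPM in KO and 8.82 to 22.9 CPM in WT. Kat5, the TIP60 acetylase of H4 and H2A, had the smallest average difference of the 37 at -0.02 ± 0.16 (SE), and its 95% interval ran from -0.37 to 0.33.

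The deacetylases had 4 averages above 0 and 4 below, a median of 0.07 and 0 calls. HDAC1, HDAC2 and HDAC3 are the nuclear class I enzymes, of which the first pair shares the same corepressor complexes. Hdac1 had 94.3 and 126.6 CPM in SSC KO, against 80.9 and 48.4 in SSC WT, then 85.4 and 97.4 in pBCSP KO, against 80.9 and 51.0 in pBCSP WT, and 101.8 and 122.3 in BCSP KO, against 81.6 and 53.0 in BCSP WT. All 6 KO libraries lay above all 6 WT libraries, as in 3.08% of all genes tested. The average was 0.66 ± 0.21 (SE), or 1.58-fold, and it stayed between 0.54 and 0.79 when single libraries were left out. In each population the WT libraries also differed, with that numbered 1 at 80.9 to 81.6 CPM and that numbered 2 at 48.4 to 53.0 CPM.

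Hdac2, the partner of Hdac1, averaged -0.10 ± 0.22 (SE), at 45.3 to 70.9 CPM in KO and 37.2 to 89.9 CPM in WT. Hdac3 averaged 0.23 ± 0.16 (SE). It had 113.1 and 180.5 CPM in SSC KO, against 99.5 and 71.3 in SSC WT. In pBCSP KO it had 103.8 and 93.1 CPM, against 100.2 and 88.0 in pBCSP WT, and the groups overlapped. In BCSP KO it had 96.0 and 92.4 CPM, against 107.5 and 101.4 in BCSP WT. KO was thus above WT in SSC and below it in BCSP, without overlap in either, and the F test of a difference between populations gave an adjusted p of 1 (unadjusted 0.103, edgeR).

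HDAC4, HDAC5 and HDAC7 are class IIa enzymes that bind MEF2 and RUNX2 transcription factors, and HDAC4 restrains chondrocyte hypertrophy. Hdac4 had 31.4 and 29.2 CPM in SSC KO, against 38.8 and 52.3 in SSC WT, then 43.2 and 37.7 in pBCSP KO, against 52.6 and 45.2 in pBCSP WT, and 36.4 and 22.3 in BCSP KO, against 45.5 and 33.8 in BCSP WT. Every KO library was below the mean of its own WT group, the groups overlapped only in BCSP, and the average was -0.43 ± 0.19 (SE). Hdac5 averaged 0.27 ± 0.26 (SE). Hdac7, shown for its spread, had 1.73 and 31.3 CPM in SSC KO, against 3.23 and 5.97 in SSC WT, then 2.78 and 4.75 in pBCSP KO, against 5.79 and 5.40 in pBCSP WT, and 3.79 and 1.95 in BCSP KO, against 12.5 and 10.7 in BCSP WT. It lay below WT without overlap in pBCSP and BCSP, and SSC KO replicate 2 was above every other library. The average was -0.24 ± 0.58 (SE), and it was -1.34 without the KO libraries numbered 2. That fit was chosen after the values were seen and leaves a single KO library per population.

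Hdac6, a mainly cytoplasmic deacetylase of tubulin, averaged 0.49 ± 0.37 (SE). It was at 16.7 to 22.8 CPM in the KO libraries numbered 1 and 4.21 to 16.4 CPM in those numbered 2, against 10.2 to 12.6 CPM in WT. Sirt1, a deacetylase that depends on NAD, had 3.60 and 0 CPM in SSC KO, against 2.25 and 4.12 in SSC WT, then 2.65 and 1.85 in pBCSP KO, against 4.81 and 6.21 in pBCSP WT, and 5.01 and 0.852 in BCSP KO, against 4.68 and 4.33 in BCSP WT. Groups separated in pBCSP alone, and the average was -0.91 ± 0.86 (SE). It was -3.59 without SSC KO replicate 1 and -0.58 without SSC KO replicate 2.

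Among the enzymes of DNA methylation 0 were called, 3 averages lay above 0 and 3 below, and the median was 0.05. TET1, TET2 and TET3 oxidise 5-methylcytosine. Tet1 had 15.5 and 49.1 CPM in SSC KO, against 7.78 and 8.36 in SSC WT, then 15.1 and 51.1 in pBCSP KO, against 12.3 and 9.78 in pBCSP WT, and 9.17 and 24.1 in BCSP KO, against 10.4 and 8.09 in BCSP WT. KO lay above WT without overlap in SSC and pBCSP, and 5 of 6 KO libraries were above the mean of their own WT group. The average was 1.48 ± 0.42 (SE), or 2.78-fold, with 2.00 in SSC, 1.58 in pBCSP and 0.85 in BCSP. In each population the KO library numbered 2 was the higher, and without BCSP KO replicate 2 the value for BCSP was -0.01. With single libraries left out the lowest value was 0.94 in SSC and 0.45 in pBCSP, and the average ran from 1.10 to 1.69. Tet2 averaged -0.19 ± 0.29 and Tet3 0.27 ± 0.24 (SE), each with groups that overlapped in all 3 populations.

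DNMT3A and DNMT3B methylate new sites and DNMT1 copies methylation after replication. Dnmt3a had 84.1 and 149.0 CPM in SSC KO, against 87.8 and 75.9 in SSC WT, then 98.4 and 127.7 in pBCSP KO, against 109.1 and 76.2 in pBCSP WT, and 83.7 and 101.9 in BCSP KO, against 93.2 and 73.3 in BCSP WT. Every KO library exceeded the mean of its own WT group, yet the groups overlapped in all 3 populations and the average was 0.32 ± 0.19 (SE; adjusted p = 0.393 in edgeR). Dnmt1 averaged -0.17 ± 0.28 (SE). Dnmt3b, at 0 to 3.03 CPM in KO and 1.61 to 4.05 CPM in WT, averaged -0.60 ± 0.75 (SE), with the lowest value in SSC KO replicate 2. It was -2.91 without SSC KO replicate 1 and -0.27 without SSC KO replicate 2.

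The methyltransferases NSD1 and SETD2 modify H3K36 and DOT1L modifies H3K79, and the marks of SETD2 and DOT1L lie over transcribed genes. All 3 averages were below 0, with a median of -0.41 and 0 calls. The summed level was 84.8 to 121.8 CPM in KO and 124.4 to 153.8 CPM in WT, without overlap. No background over all genes was computed for this sum. Setd2 had 15.7 and 32.5 CPM in SSC KO, against 18.8 and 27.1 in SSC WT, then 18.2 and 17.1 in pBCSP KO, against 25.9 and 26.1 in pBCSP WT, and 17.5 and 8.03 in BCSP KO, against 19.5 and 23.7 in BCSP WT. KO lay below WT in pBCSP and BCSP without overlap, and the average was -0.41 ± 0.27 (SE). Dot1l had 33.9 and 5.101 CPM in SSC KO, against 34.6 and 38.6 in SSC WT, then 41.0 and 8.45 in pBCSP KO, against 31.6 and 43.4 in pBCSP WT, and 39.8 and 9.67 in BCSP KO, against 40.3 and 40.3 in BCSP WT. Only the KO libraries numbered 2 were low, at 5.101 to 9.67 CPM, while those numbered 1 lay within the WT range. Its average of -0.74 ± 0.54 (SE) became 0.000304 without the KO libraries numbered 2. Nsd1 averaged -0.22 ± 0.19 (SE). Its KO libraries numbered 1 were at 51.2 to 58.1 CPM, below all WT libraries (65.1 to 92.6 CPM), and those numbered 2 at 67.1 to 96.3 CPM. The sum thus joins low Nsd1 in KO libraries numbered 1 with low Dot1l in those numbered 2.

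The remodelling genes had 0 calls and a median of -0.13. SMARCA4 (BRG1) is an ATPase of the BAF complex, ARID1A is a DNA-binding subunit of it, and CHD7 is a remodeller that binds enhancers. Smarca4 had 38.8 and 48.6 CPM in SSC KO, against 47.6 and 42.1 in SSC WT, then 52.7 and 63.4 in pBCSP KO, against 51.2 and 52.2 in pBCSP WT, and 45.1 and 68.2 in BCSP KO, against 40.6 and 44.6 in BCSP WT. Its average was 0.18 ± 0.16 (SE), and KO lay above WT in pBCSP and BCSP but not in SSC. Arid1a had 12.8 and 12.1 CPM in SSC KO, against 11.6 and 16.5 in SSC WT, then 11.1 and 20.9 in pBCSP KO, against 11.6 and 17.4 in pBCSP WT, and 11.2 and 8.40 in BCSP KO, against 15.3 and 16.1 in BCSP WT. Groups separated in BCSP alone, and the average was -0.24 ± 0.26 (SE). Chd7 averaged -0.13 ± 0.27 (SE) from opposite values, with 16.5 and 8.32 CPM in SSC KO, against 25.9 and 25.1 in SSC WT, and 26.4 and 14.2 in BCSP KO, against 14.1 and 10.8 in BCSP WT. In pBCSP KO Chd7 had 17.9 and 11.4 CPM, against 15.9 and 14.5 in pBCSP WT, and the groups overlapped. The F test of a difference between populations gave an adjusted p of 1 (unadjusted 0.0785, edgeR).

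Counted over the group, KO lay above WT without overlap for 3 of 37 genes in SSC (background 13.7% of all genes tested), 7 in pBCSP (21.2%) and 4 in BCSP (24.2%). KO lay below WT for 8 in SSC (25.8%), 8 in pBCSP (24%) and 13 in BCSP (26.4%). Over all 6 KO and 6 WT libraries at once this held for Hdac1 above (3.08% of all genes) and for Eed and Kat2b below (1.98%). Within single populations edgeR called 0 of 37 members and 0 of 17494 genes, with 2 members in SSC, 1 in pBCSP and 1 in BCSP at an unadjusted p under 0.05, against 9.39%, 6.27% and 6.26% of genes. The 2 in SSC were Hdac3 and Tet1, that in pBCSP was Eed and that in BCSP was Kdm3a. DESeq2 called 143 genes (0.854%) in SSC, 78 (0.483%) in pBCSP and 98 (0.684%) in BCSP, with 0 members. The F test of unequal KO effects called 0 members and 0 genes in edgeR, with 0 members and 1.37% of genes at an unadjusted p under 0.05, and DESeq2 called 2 genes (0.00614%) and 0 members.

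The 2 KO libraries of a population were not alike for many of these genes, and the split followed the library number, as it did for genes in general. For 8 of the 37 all 3 KO libraries numbered 2 lay below all 3 numbered 1, and for 6 they lay above, where 19.9% and 12.1% of all genes did. The 8 were Eed, Kdm1a, Kdm5a, Kdm6b, Hdac6, Sirt1, Dot1l and Chd7, and the 6 were Ezh1, Kdm4b, Kdm4c, Dnmt3a, Tet1 and Nsd1. Over all genes the deviations of same-numbered libraries from their group means correlated between populations at 0.337 to 0.55 in KO and 0.359 to 0.445 in WT, so the number ties WT libraries as well, a description over genes that are not independent. The labels give no meaning for the number, and whether it stands for an animal, a litter or a day was not tested.

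**Figure D3:**
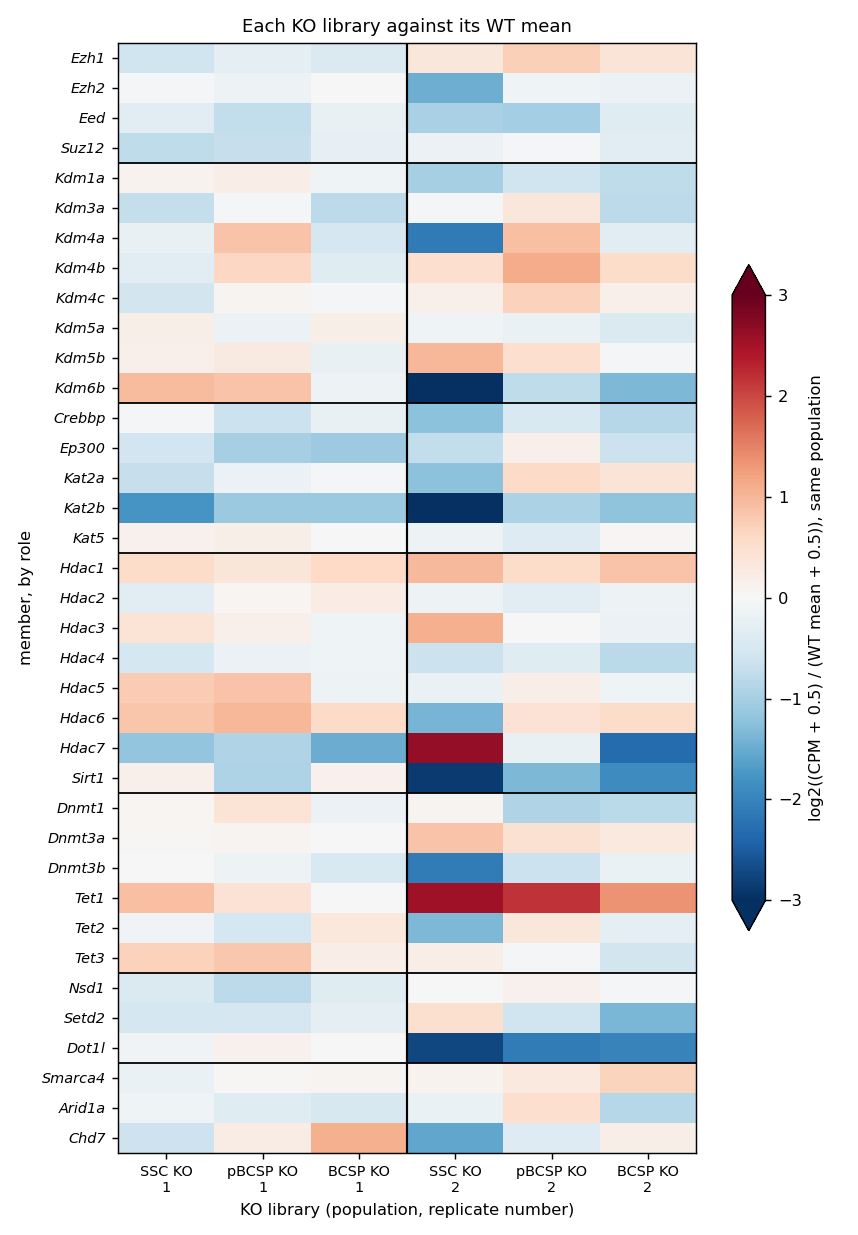
Log2 ratio of each KO library to the mean of its own WT group, after adding 0.5 CPM to both, for the 37 genes in rows by role; the 3 libraries numbered 1 stand left of the 3 numbered 2, and colours are cut at 3 in either direction. Eed, Kat2b and Hdac1 keep 1 colour across all 6 libraries, while Ezh1, Kdm6b, Dot1l and Tet1 change between the left and right columns.

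No enzyme passed the test between populations of WT cells. Neither WT BCSP minus WT SSC nor WT pBCSP minus WT SSC nor WT BCSP minus WT pBCSP gave a call among the 37 or among all genes in edgeR, and 0 members were at an unadjusted p under 0.05. At that level there were 3.48%, 1.89% and 2.62% of all genes. DESeq2 called 65, 36 and 23 genes in these comparisons (0.374%, 0.139% and 0.133%), with 0 members. The smallest unadjusted p in BCSP minus SSC was 0.057, for Chd7 at -1.03 ± 0.48 (log2 ± SE), from 14.1 and 10.8 CPM in BCSP WT and 25.9 and 25.1 CPM in SSC WT. In BCSP minus pBCSP it was 0.072 for Eed, at -0.59 ± 0.29. Hdac7 was the highest in BCSP, at 12.5 and 10.7 CPM in WT, against 3.23 and 5.97 CPM in SSC WT, a log2 difference of 1.33 ± 1.02 that did not pass.

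Other genes of the same pathways, listed by function and not by how they moved, gave the same count of 0 in edgeR. There were 0 calls among 23 other Polycomb genes, 14 other demethylases, 10 other acetyltransferases, 10 other deacetylases, 10 tested of 11 other genes of DNA methylation, 14 other methyltransferases of H3K9, H3K36 and H4K20 and 23 other remodelling genes. Of the 104 tested, 16 were at an unadjusted p under 0.05, with 9 higher and 7 lower in KO, against 19.6%, 11% and 8.57% of all genes. DESeq2, which called 8.75% of all genes, called 4 higher (Hdac11, Sirt5, Mbd4 and Chd3) and 4 lower (Suv39h1, Setdb2, Sirt7 and Ncoa3). The medians of the 7 lists were 0.01, -0.23, -0.14, 0.43, -0.32, -0.25 and -0.17 in that order. A list of 16 proliferation genes also had 0 calls in edgeR and in DESeq2, with Tyms the smallest in p (0.72 ± 0.29, adjusted p = 0.214 in edgeR), and a median of -0.22.

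In each of these lists the gene with the smallest p is named. Suv39h1, a methyltransferase of H3K9, averaged -0.90 ± 0.24 (log2 ± SE; adjusted p = 0.098 in edgeR), at 9.81 to 14.2 CPM in KO and 16.8 to 32.7 CPM in WT. Sirt7, a nucleolar sirtuin, averaged -0.70 ± 0.19 (adjusted p = 0.104), at 12.4 to 19.9 CPM in KO and 22.8 to 32.6 CPM in WT. Ncoa3, a nuclear receptor coactivator, averaged -1.05 ± 0.30 (adjusted p = 0.118), at 12.7 to 58.8 CPM in KO and 72.0 to 113.8 CPM in WT. For these 3 genes all KO libraries lay below all WT libraries, as in 1.98% of all genes tested. Each was picked from its list for the smallest p in the same libraries, so this separation is no further evidence. Smarcc2, a BAF subunit, averaged 0.76 ± 0.24 (adjusted p = 0.136) and Mbd4, a glycosylase that binds methylated DNA, 0.95 ± 0.30 (adjusted p = 0.144). Jarid2, a PRC2 cofactor, averaged 0.70 ± 0.27 (adjusted p = 0.203) and Kdm7a, a demethylase of H3K9 and H3K27, -0.84 ± 0.36 (adjusted p = 0.236). The 10 other acetyltransferases together, Ncoa3 among them, summed to 206.6 to 257.7 CPM in KO and 277.1 to 340.7 CPM in WT. Such a sum follows its most abundant genes, and no background over all genes was computed for it. The median log2 ratio of the list to the WT mean ran from -0.33 in BCSP KO replicate 2 to 0.16 in SSC KO replicate 2.

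Chromatin at the start sites was read from the authors' peak lists, in which MACS2 gives each peak a fold enrichment. A RefSeq start was at hand for 30 of the 37 genes. Hdac1, Hdac3, Kdm4b, Kdm5a, Kdm6b, Nsd1 and Chd7 had none in the table used. Windows of 250 bases upstream of the start are shown for Eed, Kat2b and Tet1, the members with the smallest adjusted p among those with a start, and for Tet2, the TET gene with the most CG pairs. They are printed 5′ to 3′ on the strand of the gene, with CG pairs in capitals, from RefSeq on GRCm38.p6. Eed lies at chr7:89980977-89981226 on the minus strand, Kat2b (the first of 2 starts) at chr17:53566721-53566970 on the plus strand, Tet1 at chr10:62887325-62887574 on the minus strand and Tet2 at chr3:133544391-133544640 on the minus strand.
Eed: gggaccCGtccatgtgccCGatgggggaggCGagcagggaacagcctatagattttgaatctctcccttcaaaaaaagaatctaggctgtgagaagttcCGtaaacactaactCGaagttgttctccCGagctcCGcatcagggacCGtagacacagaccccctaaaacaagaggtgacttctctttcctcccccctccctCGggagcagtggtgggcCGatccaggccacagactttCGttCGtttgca
Kat2b: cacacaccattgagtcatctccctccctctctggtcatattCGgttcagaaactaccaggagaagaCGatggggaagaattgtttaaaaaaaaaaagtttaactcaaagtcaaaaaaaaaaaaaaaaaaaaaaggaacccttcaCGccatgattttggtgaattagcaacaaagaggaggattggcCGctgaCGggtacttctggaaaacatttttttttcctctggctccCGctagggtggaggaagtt
Tet1: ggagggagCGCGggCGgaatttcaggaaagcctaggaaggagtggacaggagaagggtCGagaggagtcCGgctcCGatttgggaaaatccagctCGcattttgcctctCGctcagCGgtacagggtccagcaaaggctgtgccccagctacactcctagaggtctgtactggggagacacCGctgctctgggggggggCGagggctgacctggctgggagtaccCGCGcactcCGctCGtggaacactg
Tet2: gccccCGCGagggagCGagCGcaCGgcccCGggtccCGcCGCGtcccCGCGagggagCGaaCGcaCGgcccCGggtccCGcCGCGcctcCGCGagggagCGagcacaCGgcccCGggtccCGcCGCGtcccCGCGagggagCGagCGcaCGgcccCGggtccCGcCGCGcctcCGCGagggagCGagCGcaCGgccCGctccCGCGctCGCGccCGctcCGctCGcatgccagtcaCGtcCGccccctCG

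These windows held 12 CG pairs in Eed, 6 in Kat2b, 15 in Tet1 and 51 in Tet2. Over the 43 windows of the 30 genes the count ran from 0 to 51 with a median of 20, against a median of 6 over 32851 windows of the same length in the table. Those windows were not limited to genes that passed the expression filter, as all members did, so the medians are not a like comparison. A count as high as that of Tet2 occurs in 0.067% of all windows, and one as high as that of Eed in 33.5%. The motif ACGTG, the core of the element that hypoxia-inducible factors bind, was searched on both strands, where a CACGTG counts on each. It was present in 10 of the 43 windows (23.3%) and in 16.6% of all windows. ACGTG contains CG and the member windows held more CG pairs, so these shares are not a like comparison. None of the 3 windows of Kdm3a held the motif, the second start of Kdm4c had 4 matches, and Kdm4b had no window.

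H3K4me3, the mark of active promoters, had a peak within 1 kb of the start at 30 of 30 genes in each of the 6 lists. Of 11890 genes with a start 92.3% had one in SSC KO and 91% in SSC WT, 90% in pBCSP KO and 90.2% in pBCSP WT, and 91.4% in BCSP KO and 90.9% in BCSP WT. Within each list the fold enrichments of the members were near those of all genes. Their medians were 17.0 in SSC KO beside 16.6 for all genes, 14.4 in pBCSP KO beside 13.6, and 18.1 in BCSP KO beside 18.0. In WT they were 14.1 in SSC beside 14.3, 16.5 in pBCSP beside 15.8, and 18.4 in BCSP beside 17.5. Eed had peaks of 20.04, 15.2 and 22.8 in SSC, pBCSP and BCSP KO, and of 19.5, 19.8 and 23.6 in the WT lists. The peaks of Kat2b were 17.1, 15.5 and 23.6 in KO and 19.7, 21.1 and 19.1 in WT, and those of Tet1 were 21.3, 15.9 and 21.1 in KO and 19.2, 20.8 and 22.1 in WT. All 3 genes thus kept a promoter peak in KO. With 1 H3K4me3 list per group there is no replicate, and enrichments were not tested between lists. Hdac6 had the lowest member value in all 6 lists.

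H3K4me1, which flanks promoters and marks enhancers, was found within 1 kb at 29 of 30 genes in SSC KO (all genes 90.5%) and 18 in SSC WT (69.6%). It was found at 28 in pBCSP KO (92.7%) and 28 in pBCSP WT (91.2%), and at 29 in BCSP KO (92.6%) and 28 in BCSP WT (88.3%). The lists held 115704 peaks in SSC KO and 75277 in SSC WT. The 12 members with no peak within 1 kb in SSC WT included Tet1, Tet2 and Tet3, as well as Eed, Suz12 and Crebbp. This low count rested on the window: within 5 kb a peak was found at 27 of 30 in SSC WT (all genes 82.9%). In SSC KO it was found at 29 within 5 kb (95%). Tet1 lacked an H3K4me1 peak within 1 kb in 4 of the 6 lists, and Hdac6 in 5.

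H3K27ac, the product of CBP and p300, had few peaks at these starts. In the first set of libraries there were 2 of 30 in SSC KO (all genes 10.5%) and 3 in SSC WT (8.03%), 5 in pBCSP KO (17%) and 7 in pBCSP WT (22.5%), and 7 in BCSP KO (20%) and 11 in BCSP WT (26.1%). In the second set, called as narrow peaks, there were 2 in SSC KO (2.7%) and 1 in SSC WT (0.336%), 2 in pBCSP KO (2.88%) and 2 in pBCSP WT (8.89%), and 8 in BCSP KO (22.9%) and 2 in BCSP WT (0.917%). The sets put KO and WT of BCSP in opposite order. Tet2 was marked in all 6 lists of the first set. Kat2b was marked in BCSP KO of the first set and pBCSP KO of the second, and in no WT list. The sets thus differ in which KO list holds the peak. The WT lists of the second set held 137 peaks in SSC, 3811 in pBCSP and 785 in BCSP, and the KO lists 1119, 1105 and 8572. A missing peak in a short list says little, and the share of all genes with this pattern was not computed.

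**Figure D4:**
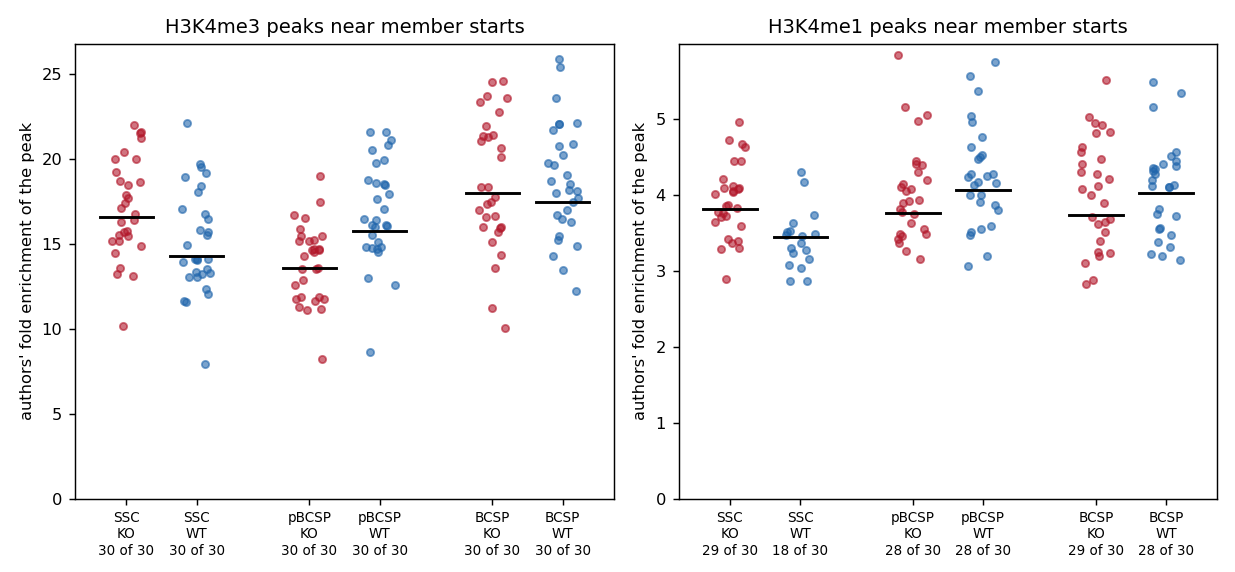
The authors' fold enrichment of the peak within 1 kb of each member's start, for H3K4me3 (left) and H3K4me1 (right), with KO in red left of WT in blue for each population; 1 point is 1 gene, the black bar is the median of all genes with a peak in that list, and the number of 30 members with a peak is under the axis. Members lie on both sides of the black bar in every list, and SSC WT has H3K4me1 peaks at 18 of 30.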

How the data were processed

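Poly(A) RNA was sequenced in 12 libraries and chromatin immunoprecipitation gave 24 peak lists. The authors deposited raw read counts per gene and, for each peak, a fold enrichment (a ratio), a -log10 p and q, and a score. Per the submitters' processing notes the build was GRCm38 and the tools were MACS2 2.2.6, SAMtools 1.9, featureCounts 2.0.1, Bowtie2 2.3.5.1 and Trim Galore 0.6.6. The sources used here do not give settings, strand use or the treatment of reads shared between genes, so values of genes with antisense partners or near-identical copies are uncertain to that extent. The 12 input libraries were not used here.

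The count matrix was filtered with filterByExpr, scaled by TMM and fitted as 1 mean per group over 12 libraries with edgeR 4.0.16 (quasi-likelihood, 6 residual and 3.38 prior degrees of freedom) in R 4.3.3, with Benjamini-Hochberg adjustment over 17494 genes and a threshold of 0.05. The average contrast weights the 3 populations equally. The script was tested on simulated data. DESeq2 1.42.0, limma 3.58.1, other scaling, no filter, a replicate block and leaving out libraries were alternatives. A count of 0 was taken to allow 3 counts, for counting error only. Peaks were matched with pandas 2.3.3 to RefSeq starts within 1 kb. Peak lists were described, not tested.

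Genes given in full are, by role, the 2 with the smallest p and the largest absolute average difference; Kdm4a, Kdm6b, Hdac3, Hdac7 and Chd7 were added after their values were seen. The members and lists were chosen with earlier results of these data known. From other lists, up to 3 genes past the threshold or the 1 with the smallest p are named.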

Additional observations from a re-analysis of the deposited data

Results flagged for a closer look

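Within each genotype the 6 libraries of the 3 populations were searched for a value set apart from the other 5 by a gap that, over the range, exceeds Dixon's 95% critical value for 6. Of 74 sets of 6 values 7 were set apart, where chance gives about 1 in 20. SSC KO replicate 2, the library with the fewest genes detected, was the one set apart for Ezh2 (9.87 CPM), Kat2b (0 CPM), Hdac3 (180.5 CPM) and Hdac7 (31.3 CPM). In pBCSP KO replicate 2 it was Ep300 (19.8 CPM) and Arid1a (20.9 CPM). In pBCSP WT replicate 1 it was Kdm4a (4.18 CPM). The 6 libraries of a genotype cover 3 populations, and the part of the population in these gaps was not tested.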

How the results depend on the processing

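The tally of single-gene values covers the members and other named genes such as Paxip1 and P4ha1. Over all alternatives 1266 values kept their direction and side of the threshold, 36 passed it newly, 58 lost it and 44 turned. As no member passed by default, the 58 all belong to genes outside the group. Members called in the average numbered 0 by default, 2 with no filter on low counts (Kat2b, Tet1), 3 with DESeq2, 3 without the KO libraries numbered 2 (Kat2b, Hdac6, Hdac7; chosen after seeing the data) and 0 to 8 without single libraries. With no filter 1882 of 32547 genes passed, and with DESeq2 1625 of 18572. Without SSC KO replicate 1 some members also passed in SSC and in the test between populations. In that fit 1 library stood for SSC KO and many genes passed, so no count of members is read from it. Causes were not tested.

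Genes called in the average numbered 205 by default, 1882 with no filter, 1625 with DESeq2, 661 without the KO libraries numbered 2, 0 in pBCSP and BCSP only and 0 to 6147 without single libraries. No filter gave 395 in SSC, 260 in pBCSP, 337 in BCSP, 50 in the test between populations and 133, 107 and 246 in WT pBCSP minus SSC, BCSP minus pBCSP and BCSP minus SSC. DESeq2 gave 143, 78, 98, 2, 36, 23 and 65. Single libraries left out gave 0 to 5908 in SSC, 0 to 2082 in the test between populations and 0 to 2 in WT BCSP minus SSC.

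Same-numbered libraries deviated together within KO (correlations of 0.337 to 0.55) and within WT (0.359 to 0.445), while KO and WT libraries of the same number gave -0.15 to 0.0463, so the number does not pair genotypes. The fit that matches this, limma with same-numbered libraries correlated within each genotype (0.329), called 44 genes and 0 members in the average. Limma without that correlation, added after seeing the data, called 462 genes and 0 members. The replicate number as a block across genotypes gave 141 genes and 0 members in the average, and 0 of either in the other comparisons.

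In pBCSP and BCSP only, Kdm4a was 0.24, Kat2a 0.21, Hdac3 -0.046, Tet2 0.012 and Chd7 0.32. Without the KO libraries numbered 2, Ezh1 was -0.43, Kdm1a 0.064, Kdm4a 0.046, Kdm4b -0.023, Kdm4c -0.17, Kdm5a 0.060, Kdm6b 0.56, Kat5 0.10, Dnmt1 0.10, Dot1l 0.000304, Smarca4 -0.033 and Chd7 0.23. Without single libraries the average log2 difference ran, for each gene, over these values: Hdac6 -0.030 to 0.74, Hdac7 -1.33 to 0.072, Ezh1 -0.10 to 0.24, Kdm4a -0.64 to 0.077, Kdm4c -0.029 to 0.23, Kdm6b -1.14 to 0.20, Kat5 -0.12 to 0.060, Chd7 -0.31 to 0.0035, Kat2a -0.33 to 0.029, Kdm5a -0.20 to 0.036, Dnmt1 -0.44 to 0.0055, Hdac2 -0.24 to 0.074 and Tet1 (BCSP alone) -0.0093 to 1.34. Kdm3a ran over -0.72 to 0.030 in SSC and -0.052 to 0.35 in pBCSP, and Hdac3 over -0.032 to 0.16 in pBCSP.

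Shares of all genes under the same rule stand in brackets. H3K4me1 at the start itself marked 3 members in SSC KO (29.4%) and 1 in SSC WT (11.4%), 7 in pBCSP KO (34.3%) and 4 in pBCSP WT (27.8%), and 9 in BCSP KO (32.6%) and 3 in BCSP WT (21%). H3K27ac in the same order marked 0 (3.32%), 0 (2.53%), 2 (6.16%), 3 (8.41%), 1 (6.27%) and 6 (10.2%) in the first set, and 0 (0.101%), 0 (0.0168%), 1 (0.143%), 0 (0.74%), 0 (1.48%) and 0 (0.0168%) in the second. At a fold of at least 4, H3K4me1 marked 14 in SSC KO (34.7%), 2 in SSC WT (7.86%), 13 in pBCSP KO (32.2%), 16 in BCSP KO (32.5%) and 17 in BCSP WT (45.3%), and H3K27ac of the first set marked 3 in pBCSP KO (8.47%), 4 in pBCSP WT (14.6%) and 4 in BCSP KO (12.1%). Within 5 kb the second set marked 2 in SSC WT (0.404%) and 4 in pBCSP WT (11.1%).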
